A study of Mus musculus with 20 samples.

Results

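The interaction of genotype and testosterone asks of each gene whether its response to testosterone in the kidney differed between ARLmon/Y and wild type mice. It was computed over all 20 of the 20 libraries as the response in ARLmon (testosterone minus vehicle) minus the response in wild type, on the log2 scale. All 4 groups of 5 libraries enter it. Of 24762 genes in the joined count tables, 15549 passed the filter on low counts and were tested.

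The mice were orchidectomised and then given testosterone or vehicle for 4 days, after which whole kidneys were snap-frozen. The wild type groups were C57BL/6J mice with vehicle and C57BL/6J mice with testosterone, and the other groups were ARLmon/Y males with vehicle and with testosterone. All groups thus share the loss of the testes, and the labels give no age, dose or vehicle. Whether the 5 libraries of a group stem from 5 animals is not in the labels, and the p-values then measure only the spread between these samples, which may be technical. Poly(A) RNA was prepared with a stranded kit and sequenced on an Illumina HiSeq4000.

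The androgen receptor is a nuclear receptor that stays in the cytoplasm with chaperones until testosterone or dihydrotestosterone binds it. It then enters the nucleus and binds DNA as a dimer. ARLmon mice carry an altered receptor, made to disturb the pairing of the ligand-binding domains. In the mouse kidney the cells of the proximal tubule express the receptor, and male and female kidneys differ in many transporters and metabolic enzymes of that segment.

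Total counts per library ran from 8342000 to 38101526, and 18781 to 21719 genes were detected. Levels are given as CPM, the counts scaled to a common library size with TMM factors, as mean ± SD over 5 libraries where an error is shown, and log2 differences carry their SE. A gene is called at a Benjamini-Hochberg adjusted p under 0.05 in edgeR's quasi-likelihood test, and rose or fell is written only of genes called in the comparison named. Wild type vehicle library GC078604 and ARLmon vehicle library GC078618 stood apart from their groups. They had the lowest library weights of limma-voom (0.2004 and 0.3082, of 20 weights up to 2.52) and the highest Kap levels of their groups, and the counts of the 3 comparisons with calls are therefore also given without them. In bulk tissue, fewer cells of a type and less RNA per cell cannot be told apart.

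More genes were called for a testosterone response in wild type kidneys than for a difference in response, and no response was called in ARLmon. These counts are not directly comparable, since the median SE was 0.163 for the wild type response and 0.228 for the interaction. In wild type, 2444 genes (15.7% of those tested) responded, 1455 (9.36%) rising and 989 (6.36%) falling, and without GC078604 and GC078618 the counts were 1509 and 997. In ARLmon, edgeR called 0 of 15549 (813 at an unadjusted p under 0.05, smallest adjusted p = 0.774). The difference between the responses was called for 741 genes, which is 4.77% of those tested (2588 at an unadjusted p under 0.05). Of these, 520 (3.34% of tested genes) were negative, meaning that the response in ARLmon lay below that in wild type, and 221 (1.42%) were positive. Without GC078604 and GC078618 the counts were 626 and 300. The group includes 32 predicted or unnamed genes, which are only counted here. An interaction of at least 1 on the log2 scale was called for 216 negative and 110 positive genes, and of at least 2 for 63 and 27.

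The split between the directions depends on the scaling of the libraries. With TMM factors 70.18% of the called genes were negative and 29.82% positive. When libraries were scaled by their size alone, the split was 32.23% and 67.77% (340 and 715 genes), and the median interaction of all genes moved from 0.0235 to 0.1982. The authors' deposited log2 values gave 37.42% and 62.58% (369 and 617 genes), with a median of 0.181. Of the 741 genes 0 changed sign between TMM factors and library size alone, and the named genes Fkbp5, Ace, Afmid, Pex11a and Mcm6 lost their calls with the latter.

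All 520 negative genes had a wild type response above 0, and 513 of them rose in wild type. Their wild type response had a median of 0.88 (quartiles 0.59 and 1.42) and their ARLmon response a median of 0.0035 (quartiles -0.11 and 0.11). Of the 221 positive genes 217 fell in wild type, with a median wild type response of -0.96 (quartiles -1.40 and -0.60) and a median ARLmon response of 0.036 (quartiles -0.087 and 0.18). The interaction and each response share libraries, so these values only restate the same data side by side. The 95% interval of the ARLmon response lay within ±1 on the log2 scale for 469 of the 520 negative and 209 of the 221 positive genes, and reached 1 for the other 51 and 12.

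**Figure D1:**
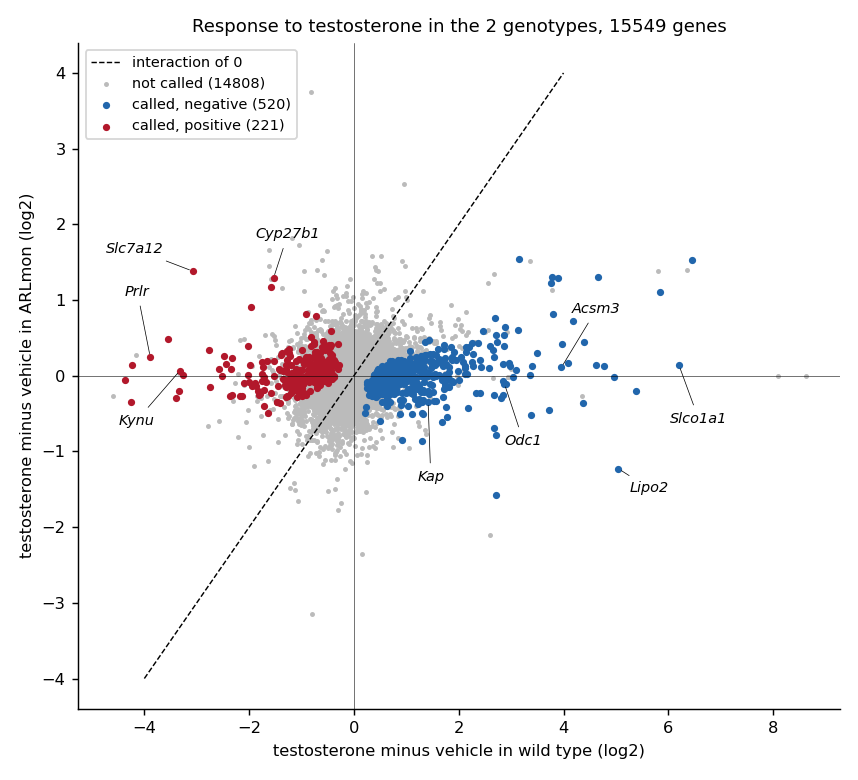
Each point is 1 of 15549 genes, with its log2 response to testosterone in wild type on the horizontal axis and in ARLmon on the vertical axis, and the dashed line marks equal responses. The 520 negative (blue) and 221 positive (red) genes spread along the horizontal axis from -4.38 to 6.46 and from -1.58 to 1.55 on the vertical axis, where their medians are 0.0035 and 0.036.

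The smallest p belonged to Hsd17b11 (chromosome 5, 103989762 to 104021919, GRCm38 here and throughout), which encodes a hydroxysteroid dehydrogenase found on lipid droplets. In the 5 wild type vehicle libraries it stood at 135, 142, 165, 136 and 126 CPM, and in the wild type testosterone libraries at 1071, 1003, 962, 1188 and 1007. In ARLmon it stood at 113, 134, 117, 100.3 and 111 with vehicle and at 111, 106, 104, 99 and 115 with testosterone. The wild type groups did not overlap, the ARLmon groups did, and all ARLmon libraries but 1 lay below the lowest wild type vehicle library. The interaction was -3.00 ± 0.13 (edgeR adjusted p = 3.91e-12).

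The gene of ornithine decarboxylase, the first enzyme of polyamine synthesis, is Odc1 (chromosome 12, 17544794 to 17551505), and it showed the same pattern from an equal start. Its vehicle libraries held 187, 206, 263, 189.5 and 186 CPM in wild type and 233, 213, 192, 168 and 204 in ARLmon. With testosterone it stood between 1329.7 and 1637 CPM in wild type and at 165, 192, 168, 184 and 232 in ARLmon. All 5 ARLmon testosterone libraries lay within the range of the vehicle libraries or just below it.

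Amacr and Slc18a1 were the other negative genes among the 5 smallest p. Amacr (chromosome 15, 10981756 to 10996626) encodes a racemase used in the peroxisomal breakdown of branched fatty acids and bile acid precursors. Its mean was 146 ± 27.1 CPM with vehicle and 582 ± 38.3 with testosterone in wild type, against 98.5 ± 7.1 and 95 ± 3.22 in ARLmon (interaction -2.05 ± 0.15, edgeR adjusted p = 1.43e-08). Slc18a1 (chromosome 8, 69037711 to 69089235) encodes a vesicular monoamine transporter. It went from 121 ± 14.4 to 525 ± 77.6 CPM in wild type and held 186 ± 12.6 and 189 ± 23.7 CPM in ARLmon (interaction -2.08 ± 0.16). Unlike Amacr, Slc18a1 was higher in ARLmon than in wild type with vehicle (log2 0.61 ± 0.11, edgeR adjusted p = 0.0015), where Amacr was lower (-0.57 ± 0.10, adjusted p = 0.0016).

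Kynu (chromosome 2, 43555329 to 43682715) was the positive gene with the smallest p. It encodes kynureninase, which splits kynurenine on the path from tryptophan to NAD. Wild type vehicle libraries held 28.7, 34.8, 28.4, 27.1 and 31.4 CPM, and wild type testosterone libraries 4.08, 2.54, 3.85, 1.33 and 3.76. ARLmon libraries held 46.1, 46.9, 49.7, 49 and 47.2 CPM with vehicle and 48.9, 42.4, 49.1, 53.2 and 57 with testosterone. Every ARLmon library thus lay above every wild type library, and the interaction was 3.39 ± 0.23 (edgeR adjusted p = 9.83e-09).

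Among the 12 largest negative interactions, 3 encode proteins of lipid or organic anion handling that reach high levels in the wild type kidney. The anion transporter gene Slco1a1 (chromosome 6, 141907282 to 141946962) held 1717, 1260.3, 1377, 1704 and 1098 CPM in wild type with testosterone. In ARLmon it held 0.356, 0.234, 0.374, 0.253 and 0.523 with testosterone and 0.467, 0.428, 0.134, 0.574 and 0 with vehicle, from 26 and 23 reads over the groups. The ARLmon values were thus far below the wild type vehicle libraries too, which held 15.4 to 22.9 CPM. Acsm3 (chromosome 7, 119760923 to 119787513), a medium-chain acyl-CoA synthetase gene, went from 161 ± 38 to 2508 ± 458 CPM in wild type and held 13.1 ± 5.46 and 14.1 ± 2.48 CPM in ARLmon (interaction -3.85 ± 0.34). Cyp4a12a (chromosome 4, 115299046 to 115332815), which encodes a fatty acid hydroxylase that acts on arachidonic acid, held 354 ± 65.6 CPM in wild type with testosterone and 2.94 ± 1.22 and 2.23 ± 0.765 in ARLmon (interaction -4.17 ± 0.42). Reads of Acsm3 can overlap the antisense gene Eri2 and those of Cyp4a12a its near copy Cyp4a12b. The strand setting of the counting is not given in the sources used here, so both are uncertain.

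The rest of these 12 genes were low in all groups but the wild type testosterone group. Ctxn3, of the cortexin family, was at 23.6 to 35.6 CPM there and at 0.117 to 1.14 in the other 15 libraries (interaction -5.58 ± 0.57). The chemokine gene Ccl28 was at 59.7, 83.5, 74.9, 107 and 151 CPM there, against 1.71 to 7.72 in wild type with vehicle and 0.171 to 2.35 over the ARLmon libraries (interaction -4.48 ± 0.67). The ubiquitin ligase gene Rnf180 (-4.65 ± 0.62), the secreted factor gene Angptl7 (-3.95 ± 0.38), the T-box gene Tbx10 (-3.92 ± 0.53), the kinesin gene Kif20b (-3.54 ± 0.37) and the collagen gene Col6a6 (-3.46 ± 0.70, antisense to Gm38314) followed. The lipase-family gene Lipo2 had the most negative value, -6.27 ± 1.10. It rests on few reads, 17 in wild type with vehicle and 263 with testosterone, against 10 and 4 in ARLmon, and the ARLmon ratio of testosterone to vehicle was 0.391 with a 95% counting interval of 0.0896 to 1.36. Without ARLmon vehicle library GC078619 the interaction of Lipo2 was -4.98 (edgeR adjusted p = 0.0454), above the -6.45 to -5.65 that Slco1a1 held over the libraries left out, and the deposited log2 values gave -3.53.

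The 12 largest positive interactions belonged to genes that fell in wild type, and the largest were Slc7a12 (4.46), Fgb (4.39), Ugt1a2 (4.32), Prlr (4.13) and Fgg (4.04). Prlr (chromosome 15, 10177238 to 10349180) encodes the prolactin receptor. Its wild type vehicle libraries held 114, 122, 52.2, 49.7 and 50.3 CPM, and its wild type testosterone libraries 3.67, 6.41, 5.04, 4.8 and 6.24. ARLmon libraries held 194, 227, 223, 192 and 108 CPM with vehicle and 220.4, 182, 208, 323 and 186 with testosterone. The lowest ARLmon library without testosterone lay within the wild type vehicle range, and all 5 with testosterone lay above it. The interaction was 4.13 ± 0.40 (edgeR adjusted p = 8.25e-07), and reads may be shared with Gm21973, which overlaps Prlr on the same strand.

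Hao2 (chromosome 3, 98874521 to 98893239), which encodes a peroxisomal hydroxyacid oxidase, was the most abundant of the 12 largest positive genes. It went from 817 ± 322 to 147 ± 30.3 CPM in wild type and held 893 ± 179.6 and 1071 ± 170.1 CPM in ARLmon (interaction 2.74 ± 0.34). Kcnip2, which encodes a subunit of potassium channels, went from 10.5 ± 5.89 to 0.975 ± 0.45 CPM in wild type and held 11.2 ± 0.758 and 9.21 ± 1.46 in ARLmon (interaction 3.11 ± 0.41). Both genes started at a similar level in the genotypes with vehicle (log2 0.13 ± 0.24 and 0.12 ± 0.24).

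Ugt1a2 (chromosome 1, 88200601 to 88218997), which encodes a glucuronosyltransferase, differed in that ARLmon stood far above wild type under both treatments. Its wild type libraries held 6.89, 7, 2.36, 4.37 and 4.67 CPM with vehicle and 0.272, 0, 0, 0.221 and 0.594 with testosterone. The ARLmon libraries held 149 to 302 CPM with vehicle and 181 to 274 with testosterone. The interaction was 4.32 ± 0.57 (edgeR adjusted p = 4.27e-05), beside a genotype difference with vehicle of 5.57 ± 0.28. Ugt1a10 had an interaction of 3.10 ± 0.68 at lower levels, 2.05 ± 0.957 and 0.25 ± 0.252 CPM in the wild type groups, and lost its call with limma-voom (adjusted p = 0.053). Genes of the Ugt1a locus share their last exons, so reads cannot be assigned to a single member with certainty.

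A further set of positive genes encodes plasma proteins usually made by the liver, and 1 wild type vehicle library stood high for it. The fibrinogen chain gene Fgg (chromosome 3, 83007724 to 83015049) held 19.7, 18.6, 24.9 and 30.8 CPM in 4 wild type vehicle libraries and 323 in GC078606. With testosterone, wild type held 5.32 to 9.68 CPM, and ARLmon held 9.74 to 15.2 with vehicle and 10.1 to 35.5 with testosterone. The interaction of 4.04 ± 0.94 fell to 2.24 without GC078606 and kept its call, and limma-voom gave an adjusted p of 0.116. Fgb, another fibrinogen chain gene, went from 4.39 ± 1.22 to 2.47 without that library, lost its call in 11 of the 20 fits that leave out a library, and had an adjusted p of 0.230 with limma-voom. DESeq2 gave no adjusted p for Fgg or Fgb. Gc, whose product carries vitamin D in plasma, held 58.3 ± 43.4 CPM with vehicle and 6.03 ± 0.627 with testosterone in wild type and 129 ± 20.9 and 129 ± 49.9 in ARLmon. Its interaction was 3.26 ± 0.46, and 2.7 without GC078606.

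Of 10 liver markers 9 were tested (Ahsg was not), and 2 were called, Alb (1.59 ± 0.25) and Serpina1a (1.73 ± 0.45, antitrypsin), both positive. The called share of the list was 22.2% and its median interaction 1.02, against 4.77% and 0.02 over all genes tested. The summed level of the list ran from 249 to 497 CPM in wild type with vehicle, 259 to 317 with testosterone, and 201 to 351 and 269 to 437 in the ARLmon groups, so the ranges overlapped. Alb stood between 1.72 and 18.1 CPM. The part of liver or plasma RNA in these results was not tested.

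**Figure D2:**
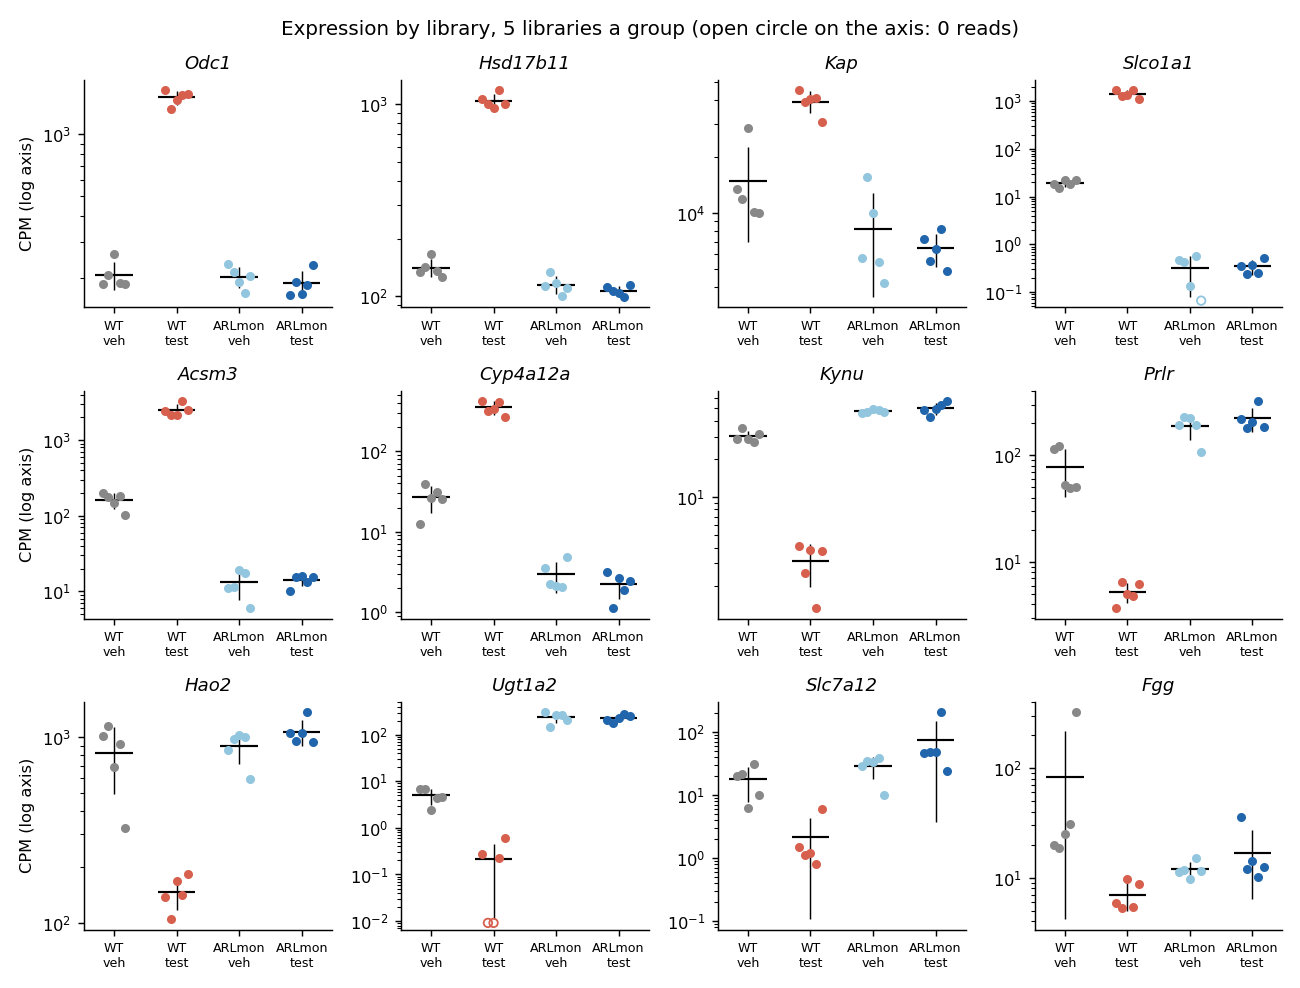
CPM on a log axis for 12 genes in each of the 20 libraries (points), with the group mean (horizontal line) and SD (vertical line, cut short where it would pass below 0), and an open circle on the axis marks a library with 0 reads. The wild type testosterone group is the highest or the lowest in each panel (for Odc1 between 1329.7 and 1637 CPM). For Slco1a1, Acsm3, Cyp4a12a, Ugt1a2 and Kynu the ARLmon groups also lie apart from wild type with vehicle.

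In 8 called genes the responses had opposite signs in the genotypes and each was at least 0.5 in size, and 6 of these follow. Tmprss9, a membrane serine protease gene (3.37 ± 0.21 in wild type, -0.52 ± 0.33 in ARLmon), Ugt2b5, another glucuronosyltransferase gene (1.77 ± 0.23 and -0.55 ± 0.27), and Lipo2 (5.05 ± 0.47 and -1.23 ± 0.91) had a positive wild type response. Slc7a12, an amino acid transporter gene (-3.07 ± 0.67 and 1.38 ± 0.52), Ceacam2, a cell adhesion gene (-1.97 ± 0.48 and 0.91 ± 0.43), and Cyp27b1, whose enzyme makes the active form of vitamin D (-1.53 ± 0.49 and 1.29 ± 0.45), had a negative one. Tmprss9 overlaps Timm13 on the other strand. The wild type response was called for all 6, and the ARLmon response for none of them (adjusted p = 0.774 or above), so a response of ARLmon opposite to wild type was not established for any.

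The positive members of this set vary widely between libraries. Slc7a12 held 46.6, 47.6, 48, 204 and 23.9 CPM in ARLmon with testosterone and 28.2, 34.1, 32.7, 37.9 and 9.9 with vehicle. Library GC078615 gave the highest value, and without it the interaction was 3.62 in place of 4.46. Without wild type testosterone library GC078611, the highest of its group at 5.94 CPM, it was 5.41. GC078615 was also highest for Ceacam2, at 76.9 CPM against 21.8 to 36 in the rest of its group. Cyp27b1 held 32.3, 16.2, 7.48, 15.7 and 17.2 CPM in ARLmon with testosterone and 1.87, 14.2, 7.46, 4.71 and 8.14 with vehicle, and the ranges overlapped.

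The groups did not start from the same level with vehicle for all of these genes. Of all tested genes, 680 (4.37%) were called between ARLmon and wild type with vehicle, 370 (2.38%) lower and 310 (1.99%) higher in ARLmon. This count moved with single vehicle libraries, to 1211 (610 and 601) without GC078604 and to 413 (248 and 165) without GC078605. Without GC078603, 184 genes were higher, and without GC078604 and GC078618 470 were lower and 424 higher. With all libraries, among the 520 negative genes 119 (22.9%) were lower in ARLmon with vehicle and 5 (0.962%) higher, and among the 221 positive genes 38 (17.2%) were higher and 8 (3.62%) lower. The interaction uses the same vehicle libraries with the opposite sign, so these shares describe where the genes stood and test nothing further. The median vehicle difference was -0.20 (quartiles -0.45 and -0.044) for negative and 0.10 (quartiles -0.097 and 0.39) for positive genes.

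The vehicle differences of genes with an interaction thus ran from near 0 to large gaps, and a missing call does not show a level start. Kap, for one, had a vehicle difference of -0.85 ± 0.31 without a call (edgeR adjusted p = 0.137). Among androgen-raised genes, Odc1 (-0.03 ± 0.12), the lysosomal glucuronidase gene Gusb (-0.01 ± 0.10) and Nudt19 (-0.06 ± 0.18), whose enzyme splits CoA, had vehicle differences near 0. Slco1a1 (-5.94 ± 0.30), Cyp7b1 (-4.46 ± 0.30), Acsm3 (-3.62 ± 0.25), Cyp4a12a (-3.18 ± 0.29) and Cyp2e1 (-2.62 ± 0.15) were already lower in ARLmon without testosterone (edgeR adjusted p = 2.5e-07 or below). In wild type with vehicle these 5 genes stood between 19.5 CPM (Slco1a1) and 814 CPM (Cyp2e1). A negative interaction on top of such a gap means that the genotypes stood further apart with testosterone, by -12.00 for Slco1a1 and -7.47 for Acsm3.

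The fibrinogen gene Fgg and the antitrypsin gene Serpina1a went the other way, with a positive interaction and a lower level in ARLmon with vehicle (-2.78 ± 0.65 and -3.06 ± 0.33). The difference for Fgg includes the 323 CPM of GC078606, where the other 4 wild type vehicle libraries held 18.6 to 30.8 CPM and the ARLmon vehicle libraries 9.74 to 15.2. For Serpina1a the ARLmon groups stayed below wild type under testosterone, at 6.8 ± 3.56 against 16.8 ± 4.84 CPM. Its call was lost in 3 of the fits that leave out a library and with limma-voom (adjusted p = 0.0668).

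**Figure D3:**
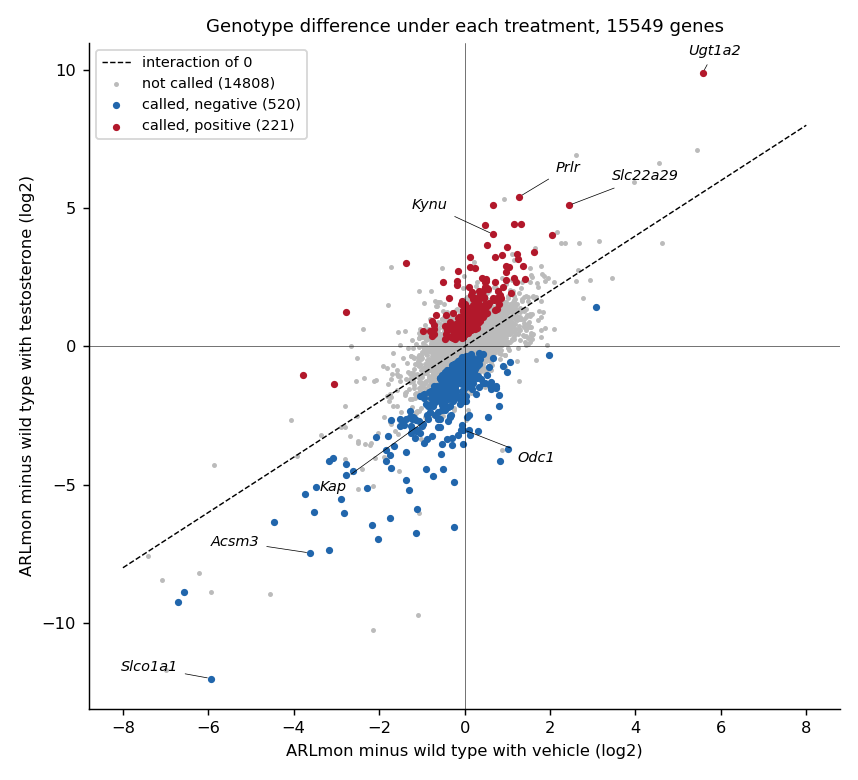
For each of 15549 genes the log2 difference between ARLmon and wild type with vehicle is on the horizontal axis and with testosterone on the vertical axis, and the dashed line marks equal differences. Called genes lie below (blue, 520) or above (red, 221) the line, and Odc1 starts near 0 on the horizontal axis where Slco1a1 starts at -5.94 and Ugt1a2 at 5.57.

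Genes were also grouped into lists of pathways and cell types, written with earlier results of these data known. Members named below that the naming rule does not select, such as Slc7a13, Slc22a6, Cyp4b1 and Havcr1, were chosen after their values were seen. A list of 20 genes that androgens raise in the mouse kidney had 17 negative and 0 positive calls and a median interaction of -1.93, and its direction is no independent evidence, since it was drawn up for that direction. Beside those above it holds Hsd11b1 (-2.92 ± 0.24), Srd5a2 (-3.28 ± 0.46), the glucuronosyltransferase gene Ugt2b38 (-1.90 ± 0.24) and Cyp4b1 (-1.61 ± 0.24). Kap (chromosome 6, 133849851 to 133853762), which encodes the kidney androgen-regulated protein, had the largest p of the 17. It held 13352, 11889, 28612, 10162 and 9972 CPM in wild type with vehicle and 5705, 15542, 9945, 5494 and 4236 in ARLmon with vehicle, so that GC078604 and GC078618 stood well above their groups. Its interaction of -1.76 ± 0.44 was -2.14 without GC078604 and -1.39 without GC078618, and was called in both.

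The 3 members without a call were Slc7a13, Aoc1 and Cyp4a12b. The amino acid transporter gene Slc7a13 rose in wild type, from 169.8 to 1006 CPM, and stood at 1.25 and 2.79 CPM in ARLmon, with an interaction of -1.34 ± 0.55 (edgeR adjusted p = 0.209). The diamine oxidase gene Aoc1 (2.14 ± 0.91) and Cyp4a12b (0.53 ± 0.49) did not pass in wild type either. Of 12 genes that androgens lower in the kidney 8 were positive and 0 negative, with a median of 2.7. They are Kynu, Prlr, Slc22a29, Hao2, Ugt1a2, Abcb1b, Slc7a12 and Slc22a8, and the members without a call were Cyp4a14 (3.37 ± 1.15), Slco1a6, Abcc3 and Cyp2a4 (0.03 ± 0.34).

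At a share of 1.42% positive over all tested genes, a list of 20 would often hold no positive call. Of 20 tested steroid-metabolising genes 5 were negative, beside 3.34% of all tested genes, and 0 positive, with a median of -0.34 (0.02 over all tested genes). Hsd17b11 was among them, with Hsd11b1, whose enzyme reactivates glucocorticoids and which held 63.9 ± 9.9 and 459 ± 99.9 CPM in wild type and 47.9 ± 6.42 and 45.6 ± 11.2 in ARLmon. The steroid reductase genes Srd5a2 (-3.28 ± 0.46) and Srd5a1 (-1.01 ± 0.23) convert testosterone to dihydrotestosterone, and Cyp7b1 (-1.90 ± 0.40) encodes an oxysterol hydroxylase. Of these genes, Srd5a2 overlaps CT025731.1 on the same strand, and Hsd17b11, Hsd11b1, Srd5a2 and Cyp7b1 are also in the androgen-raised list.

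Scaling by library size alone gave the same counts, and without GC078604 and GC078618 there was 1 positive call.

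In the polyamine list Odc1 was called and the other 15 of 16 tested members were not. That share, 6.25%, was near the 4.77% of all tested genes. Next by p were Oaz2 (-0.40 ± 0.12, adjusted p = 0.0646), an antizyme gene whose product marks ornithine decarboxylase for degradation, and Azin1 (-0.60 ± 0.21), whose product blocks the antizyme. The genes of spermidine and spermine synthesis had interactions of -0.28 ± 0.28 (Srm) and 0.24 ± 0.16 (Sms).

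Transporter genes were called in both directions. Of 21 organic anion transporter genes 6 were negative and 3 positive (median -0.53), beside 3.34% and 1.42% of all tested genes. Beside Slco1a1 the negative ones were Slco3a1 (-1.29 ± 0.19), Slc22a6 (-0.92 ± 0.18), Slc22a30 (-1.87 ± 0.41), Slc22a7 (-1.61 ± 0.43) and Slc22a28 (-1.25 ± 0.34), and the positive ones Slc22a29 (2.67 ± 0.27), Slc22a8 (1.56 ± 0.32) and Slco2b1 (0.58 ± 0.14). Slc22a6 and Slc22a8 encode the main uptake carriers for organic anions on the blood side of the tubule, and went in opposite directions. Slc22a28, Slc22a29 and Slc22a30 are near copies, and Slc22a29 had the opposite sign in the authors' deposited log2 values (-0.54, adjusted p = 0.217), so their values are uncertain. Slco1a1 and Slc22a30 are also in the androgen-raised list, and Slc22a29 and Slc22a8 in the androgen-lowered list. Of 10 tested cation and carnitine transporter genes 1 was called, Slc22a2 (-1.05 ± 0.19). Of 9 tested urate and phosphate transporter genes 2 were called, Slc17a3 (-1.41 ± 0.24) and Slc17a1 (-0.57 ± 0.12).

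Amino acid transporter genes were called only as positive, 6 of 29 tested with 0 negative, beside 1.42% positive over all tested genes. The list's median was 0.25, and its lowest value was that of Slc7a13 (-1.34), which was not called. Slc3a2 encodes the heavy chain that brings several of these transporters to the membrane, and it held 244, 280.3, 318, 268 and 365 CPM in wild type with vehicle and 149, 151, 154, 139 and 154 with testosterone. In ARLmon it held 285 to 372 CPM with vehicle and 252 to 350.3 with testosterone, within or above the wild type vehicle range (interaction 0.87 ± 0.15, edgeR adjusted p = 0.00106). Its partner light chains Slc7a8 (0.96 ± 0.13) and Slc7a7 (1.01 ± 0.18), the cystine transporter chain Slc7a9 (0.72 ± 0.15) and the glutamine transporter gene Slc38a3 (1.34 ± 0.31) were called with it, as was Slc7a12. The counts were also 0 and 6 with library size alone, and 0 and 8 without GC078604 and GC078618. The multidrug efflux pump genes Abcb1b (2.61 ± 0.37) and Abcb1a (1.26 ± 0.32) were the 2 calls among 12 ABC efflux pump genes, and Abcb1a lost its call without GC078607 and with limma-voom (adjusted p = 0.0595).

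Genes of drug and lipid metabolism were split within families. The counts of these families stand beside 3.34% negative and 1.42% positive over all tested genes. Of 36 cytochrome P450 genes of families 2 and 4, 4 were negative (Cyp4a12a, Cyp2e1, Cyp4b1 and Cyp2j13) and 3 positive (Cyp2d26, Cyp2c44 and Cyp4a10). The 4 negative P450 genes are also in the androgen-raised list, drawn up for that direction. The wild type means of Cyp2e1 were 814 with vehicle and 2912 CPM with testosterone, against 132 and 127 for ARLmon (interaction -1.89 ± 0.21). Cyp2d26 held 197 with vehicle and 54.2 CPM with testosterone in wild type, where ARLmon held 389 and 354 (interaction 1.73 ± 0.20). Of 16 genes of glucuronidation 5 were negative, among them Ugt2b38, and 3 positive, all of the Ugt1a locus. Ugt2b38 is also in the androgen-raised list and Ugt1a2 in the androgen-lowered list. Scaling by library size alone gave 2 negative and 3 positive. The 3 calls among 21 glutathione transferase genes were positive (Gsta2 2.10 ± 0.31, Gsto1 0.72 ± 0.19 and Mgst1 1.13 ± 0.30), but Gsto1 and Mgst1 lost their calls in 10 and 8 of the 20 fits without a library, and Mgst1 was 0.74 without GC078606.

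Of 18 acyl-CoA synthetase and glycine conjugation genes Acsm3, Nudt19 (-2.78 ± 0.27) and Acsm2 (-1.32 ± 0.19) were negative, while Acsl1 (1.19 ± 0.23) and Acss1 (0.61 ± 0.16) were positive. Of 29 fatty acid oxidation genes 4 were negative, among them the short-chain acyl-CoA dehydrogenase gene Acads (-0.71 ± 0.16), and 1 was positive (Acaa2, 0.66 ± 0.19). With library size alone 2 were negative and 2 positive, and without GC078604 and GC078618 there were 6 and 0. Of 13 sulfation genes Papss1 (-1.14 ± 0.17), which makes the sulfate donor, and Slc26a1 were negative, and Sult1c2 (0.69 ± 0.13) and the sulfate transporter gene Slc13a1 (0.95 ± 0.21) were positive. Of 20 gluconeogenesis genes Fbp2 (1.36 ± 0.21) and Slc38a3 were positive and Ldhd (-0.92 ± 0.15) was negative. Of 15 tested genes of the renin-angiotensin system the angiotensinogen gene Agt was positive (1.38 ± 0.22), and the converting enzyme gene Ace negative (-1.30 ± 0.37) with a call lost in 17 of the 20 fits without a library. In the order given, the called shares of these lists were 27.8%, 17.2%, 30.8%, 15% and 13.3%, beside 4.77% of all tested genes. Acsm3 and Nudt19 are also in the androgen-raised list.

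**Figure D4:**
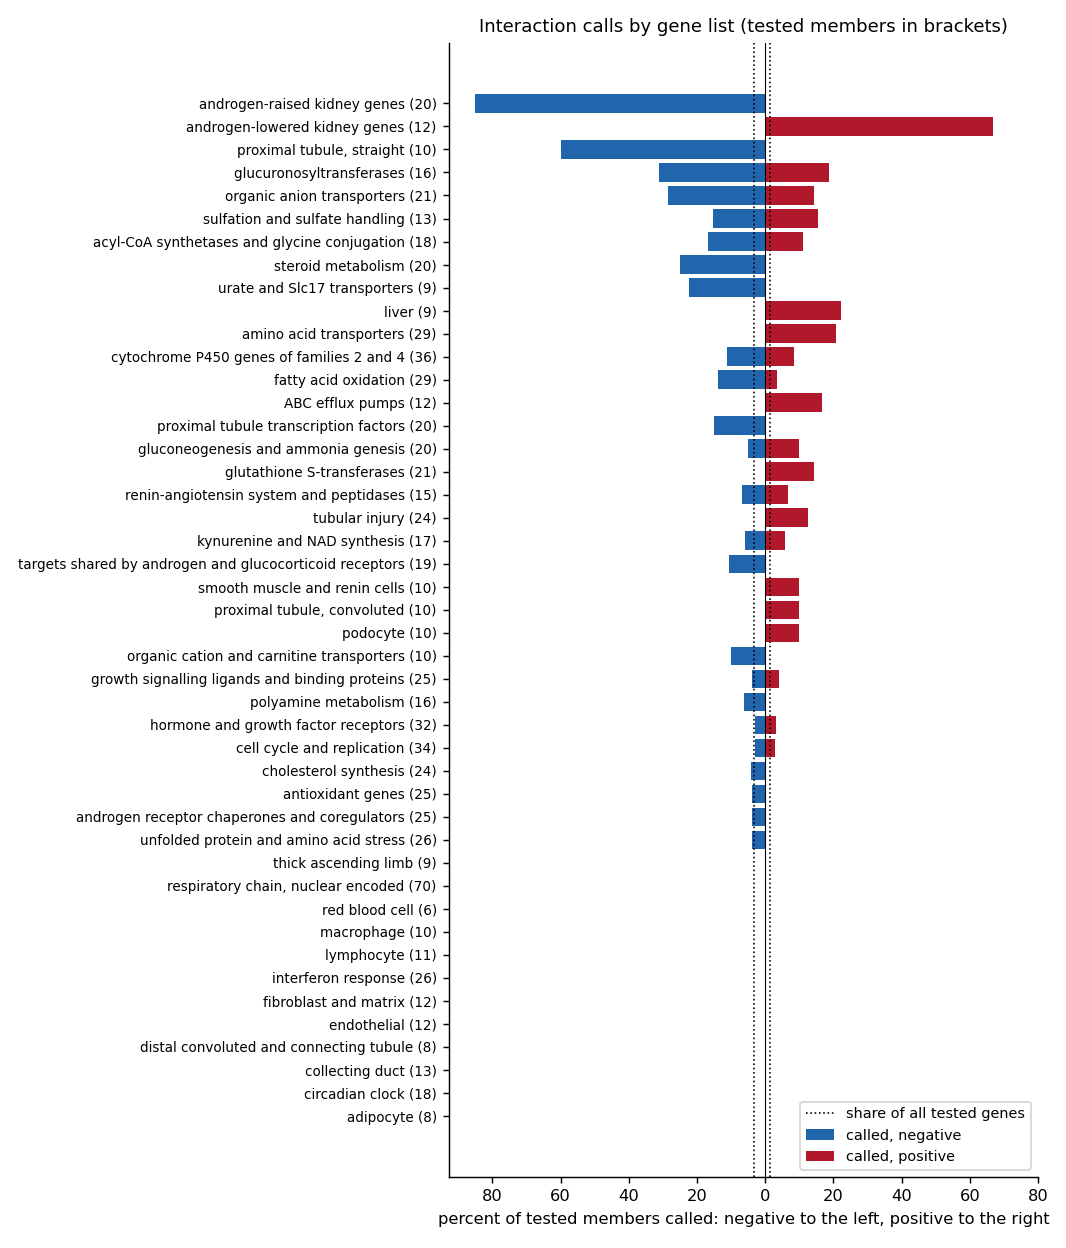
Bars give, for each gene list with at least 5 tested members, the percent of its tested members (number in brackets) with a negative call to the left and a positive call to the right, and dotted lines mark the shares over all tested genes, 3.34% and 1.42%. The androgen-raised list (17 of 20) and the androgen-lowered list (8 of 12) have the longest bars and were drawn up for those directions. The amino acid transporters (6 of 29) are among the lists with positive calls alone.

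Among 25 genes of receptor chaperones and coregulators the co-chaperone gene Fkbp5, which androgens and glucocorticoids are known to raise, was the single call (-1.42 ± 0.39, edgeR adjusted p = 0.0397), and it was lost with library size alone (adjusted p = 0.0634) and in 13 of the 20 fits without a library. Among 19 targets shared by the androgen and glucocorticoid receptors the repressor gene Bcl6 was negative as well (-1.81 ± 0.48, lost in 8 fits). Of 20 transcription factor genes of the proximal tubule 3 were negative, among them Bcl6 and the bile acid receptor gene Nr1h4 (-0.87 ± 0.18). Nr1h4 held 102 to 119 CPM in wild type with vehicle, 153 to 246 with testosterone, and 75.4 to 117 and 77.2 to 93.4 in the ARLmon groups. Of 32 hormone and growth factor receptor genes, Prlr was positive and Met (-0.77 ± 0.17), the receptor of hepatocyte growth factor, negative. Of 25 growth signalling genes, Angptl7 was negative and Igfbp7 positive (0.57 ± 0.11). The called shares were 4% for chaperones and coregulators, 6.25% for receptor genes and 8% for growth signalling, beside 4.77% of all tested genes. They were 10.5% for the shared targets and 15% for the transcription factors.

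Tubular injury genes had 3 positive calls of 24 and a median of 0.82, beside 1.42% positive and a median of 0.02 over all tested genes. Among the 3 were Fgg and Fgb, described above. The osteopontin gene Spp1 was the third. It held 1493 to 2936 CPM in wild type with vehicle, 616 to 1011 with testosterone and 2470.1 to 3017 in ARLmon with vehicle, and in ARLmon with testosterone 6924 in GC078612 and 2103 to 2543 in the other 4 libraries. Its interaction was 1.66 ± 0.37, and 1.21 without GC078612. The summed level of the list ran from 2137 to 4935 CPM and from 1142 to 1690 in the wild type groups and from 3353 to 3965 and from 2711 to 8709 in the ARLmon groups, and its part in the other results was not tested. Havcr1, which encodes the kidney injury molecule, had a larger value with a wide error, 4.58 ± 1.81 (adjusted p = 0.184).

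Among proximal tubule markers, those of the convoluted part had 1 positive call of 10 (Slc34a3, a phosphate transporter gene, 1.09 ± 0.18), which shows little about that list. Those of the straight part had 6 negative calls of 10 tested and 0 positive (median -1.33), beside 3.34% negative and 1.42% positive over all tested genes. The 6 are Acy3 (-1.61 ± 0.25), Atp11a (-1.93 ± 0.36), Cyp7b1, Slc5a8 (-1.31 ± 0.28), Slc22a30 and Slc27a2 (-0.72 ± 0.19), and Atp11a, Cyp7b1 and Slc22a30 are also in the androgen-raised list. The summed level of the straight-part markers ran from 14134 to 16977 CPM in wild type with testosterone, above the 4757 to 7135 with vehicle and the 3396 to 6101 of the ARLmon libraries. The sodium and glucose carrier gene Slc5a1, a marker in the same list, did not pass in wild type or in the interaction (0.12 ± 0.15). With library size alone, or without GC078604 and GC078618, the list had 5 negative and 1 positive calls. Its part in the other results was not tested.

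Other segments and cell types gave few calls. With 4.77% of all tested genes called, lists this short would often hold none, so these counts show little about them. Of 10 podocyte markers Podxl was positive (0.52 ± 0.15, lost in 15 of the 20 fits without a library), and of 10 smooth muscle and renin cell markers Acta2 (0.84 ± 0.22, lost in 5). With library size alone these lists had 5 and 2 positive calls. Their medians were 0.44 and 0.56. The summed podocyte level was 475 to 562 CPM in wild type with testosterone, below the 692 to 887 and 674 to 840 of ARLmon with vehicle and testosterone, and it overlapped the 557 to 749 of wild type with vehicle. The summed smooth muscle level overlapped between all groups, at 519 to 904 CPM over all libraries. The part of either cell type in the other results was not tested. There were 0 calls among 9 thick ascending limb, 8 distal convoluted tubule, 13 collecting duct, 12 endothelial, 12 fibroblast, 10 macrophage, 11 lymphocyte, 6 red blood cell and 8 adipocyte markers. Of the adrenal list 1 member was tested and not called, and of the seminal and epididymal list 0 were tested. Without GC078604 and GC078618 3 endothelial markers were positive.

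Some pathways also gave no call with this test. These were the 70 nuclear-encoded respiratory chain genes (median -0.25), the 26 interferon response genes (median -0.26) and the 18 circadian clock genes (median -0.18). Cell cycle genes had 1 negative call (Mcm6, -0.56 ± 0.16, lost in 13 of the 20 fits without a library) and 1 positive (Kif20a, 1.59 ± 0.38) of 34, with a median of 0.38, but 8 positive and 0 negative with library size alone. Cholesterol synthesis (Hmgcs1, -0.92 ± 0.22), unfolded protein and amino acid stress (Shmt2, -0.75 ± 0.14) and antioxidant genes (Ggt1, -0.89 ± 0.22) had 1 negative call each of 24, 26 and 25 tested members. Their shares and the 5.88% of the cell cycle genes were close to the 4.77% of all genes.

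The reach of the interaction test depended on the level of a gene. An interaction combines 4 group means, and its SE had a median of 0.228, against 0.163 for the wild type and 0.160 for the ARLmon response. The smallest called interaction was 0.34 on the log2 scale. Of 1297 genes with a mean under 1 CPM 1.39% were called, with a median SE of 0.575. The share was 2.75% of 4398 genes from 1 to 10 CPM, 4.89% of 7974 genes from 10 to 100, and 11.3% of 1880 genes at 100 CPM or more, where the median SE was 0.171. Of the 14808 genes without a call, the 95% interval excluded an interaction of 1 in either direction for 10564 and did not for 4244.

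The DNA element to which the androgen receptor binds was looked for in the promoters of called genes. RefSeq promoter windows (GRCm38.p6, 250 bases before to 50 after a gene's start) were matched by symbol for 10975 of the tested genes. The element searched was 2 copies of a 6-base arm facing each other around 3 free bases, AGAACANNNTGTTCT, with up to 2 mismatches outside the free bases, and it reads the same on both strands. It was found for 3 of 393 negative genes (0.763%), 3 of 156 positive genes (1.92%) and 149 of all genes (1.36%). With at most 1 mismatch the shares were 0.509%, 0.641% and 0.137%, from 2, 1 and 15 genes, and the arm AGAACA alone on either strand, which the element can include, was in 18.6%, 23.7% and 15.3%.

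The stretches that hold the element are shown for all named genes among these 6, with the element in capitals and each sequence read 5′ to 3′ in the direction of the gene. They are the 250 bases before the RefSeq start, or 30 bases around the element for Serpinf2. For Nat8 and Adh1 this start is not that of the GENCODE gene, which spans 85830388 to 85832082 (Nat8) and 138260991 to 138290698 (Adh1). The Nat8 stretch lies outside the GENCODE gene and the Adh1 stretch inside it. The predicted gene Gm16010 is the other positive gene and is not shown. Adh1 (chr3:138277335-138277584, plus strand, elements from bases -220 and -87 from the start), Nat8 (chr6:85836858-85837107, minus strand, -19) and Serpinf2 (chr11:75439478-75439507, minus strand, from base 2 after the start) are negative genes. Car14 (chr3:95904686-95904935, minus strand, -226) and Golm1 (chr13:59675785-59676034, minus strand, -228) are positive genes.
Adh1: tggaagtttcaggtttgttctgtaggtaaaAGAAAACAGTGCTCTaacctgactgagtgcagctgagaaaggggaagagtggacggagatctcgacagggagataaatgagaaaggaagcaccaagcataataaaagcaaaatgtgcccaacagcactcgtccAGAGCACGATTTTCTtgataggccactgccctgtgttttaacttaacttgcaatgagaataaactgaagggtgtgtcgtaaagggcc
Nat8: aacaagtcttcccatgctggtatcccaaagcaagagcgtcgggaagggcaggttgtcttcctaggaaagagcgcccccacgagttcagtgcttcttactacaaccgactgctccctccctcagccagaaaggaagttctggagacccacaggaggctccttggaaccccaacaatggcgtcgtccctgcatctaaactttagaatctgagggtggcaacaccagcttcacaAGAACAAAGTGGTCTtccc
Serpinf2: gtccaggAGAACACCGTGTGCTgcgtgtgc
Car14: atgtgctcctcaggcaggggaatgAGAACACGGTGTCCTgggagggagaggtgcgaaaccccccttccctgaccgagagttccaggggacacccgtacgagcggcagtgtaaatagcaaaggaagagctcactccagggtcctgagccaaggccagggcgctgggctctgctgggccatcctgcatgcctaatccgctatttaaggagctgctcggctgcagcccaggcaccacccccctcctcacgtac
Golm1: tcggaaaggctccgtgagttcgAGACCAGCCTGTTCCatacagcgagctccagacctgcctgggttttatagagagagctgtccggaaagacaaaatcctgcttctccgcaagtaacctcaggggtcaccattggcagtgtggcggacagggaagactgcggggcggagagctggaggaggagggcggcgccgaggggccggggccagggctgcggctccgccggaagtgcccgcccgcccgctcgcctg
The elements of Nat8, Serpinf2 and Car14 have 1 mismatch, and those of Adh1 and Golm1 have 2. These 5 genes lie outside the rule for named genes and were chosen after their values were seen. Adh1, an alcohol and retinol dehydrogenase gene, went from 389.9 ± 100.3 to 1418 ± 325 CPM in wild type and held 181 ± 42.4 and 173 ± 30.9 in ARLmon (interaction -1.93 ± 0.26). The acetyltransferase gene Nat8 (-1.53 ± 0.24) held 320.2 to 383 CPM in wild type with testosterone and 45.1 to 181 in the other libraries, and the antiplasmin gene Serpinf2 (-1.41 ± 0.20) held 572 to 644 and 62.4 to 256. The carbonic anhydrase gene Car14 (1.48 ± 0.31) held 42.3 to 80.5 CPM in wild type with testosterone and 97 to 278 elsewhere, and the Golgi gene Golm1 (0.81 ± 0.18) 8.15 to 12.2 and 13.2 to 24. A match describes these letters and shows no binding.

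The counts of calls moved with single libraries. Over the 20 fits that leave out a library, negative calls ran from 432 to 645 and positive calls from 144 (without wild type testosterone library GC078610) to 322 (without GC078604). Of the 741 genes, 516 (396 negative and 120 positive) were called in all 20 of these fits. In all 9 other fits of the counts 484 genes were called, and 438 (322 and 116) were called in every fit of both kinds. Hsd17b11 ranged from -3.06 to -2.94 over the fits without a library and Odc1 from -3.08 to -2.92.

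**Figure D5:**
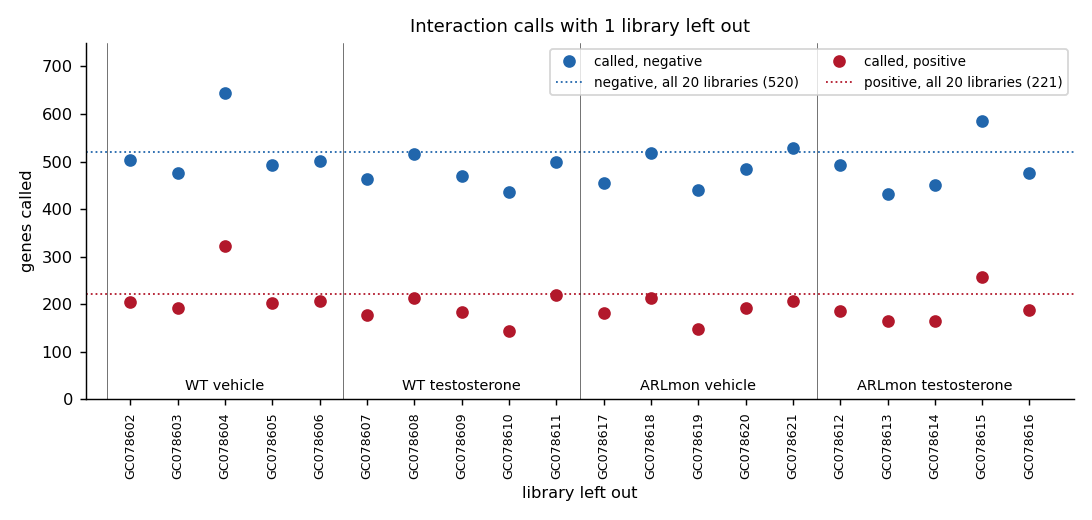
Points give the genes called negative (blue) and positive (red) when the library named on the horizontal axis is left out, and dotted lines the counts with all 20 libraries, 520 and 221. The counts are highest without GC078604 (645 and 322), and the positive count is lowest without GC078610 (144).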

How the data were processed

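RNA-seq counts of whole mouse kidney were analysed for 20 libraries in 4 groups of 5, taken from the labels. Per the submitters' processing notes FastQC 0.11.7, HISAT2, SAMtools 1.5, HTSeq 2.7.14 and DESeq2 were used with build mm10, and the strand setting and annotation of the counting are not given in the sources used here. The authors deposited whole-number read counts per gene in 4 tables of 10 libraries, which were joined by gene symbol (24762 genes, 0 values in conflict). Genes left out of a table for low counts gave 12045 values in 1713 genes that were set to 0. The authors also deposited log2 values for 20550 genes, whose normalization is not given in the sources used here, and which serve as an alternative with limma.

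The counts were fitted with edgeR 4.0.16 in R 4.3.3 (filterByExpr, TMM factors, quasi-likelihood fit of 4 group means, 16 residual degrees of freedom). The 15549 genes that passed the filter share the Benjamini-Hochberg adjustment. The SE of a log2 difference is its absolute size divided by the square root of the F value of its test. The 95% intervals are built symmetrically from this SE, so both are approximate. The method was tested on simulated data. Alternatives were other scalings and filters, DESeq2 1.42.0, limma-voom (limma 3.58.1), the deposited log2 values and each library left out. Depth was 8342000 to 38101526 counts per library, and counting intervals cover counting error only. Gene positions come from GENCODE on GRCm38, and figures were drawn with matplotlib 3.10.9.

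The comparison, lists and members were chosen with earlier results of these data known. Genes are named by rule: Kap and Odc1, the 12 largest negative and 12 largest positive called interactions with at least 5 CPM in the highest group, the 5 smallest p, up to 3 called members per list, and up to 6 called genes with opposite responses of at least 0.5. Some results are not reported here.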

Additional observations from a re-analysis of the deposited data

Results flagged for a closer look

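The response to testosterone differed between the genotypes by the test of the interaction itself for 741 genes. For 6 named genes the responses had opposite signs, with interactions of -3.89 (Tmprss9), -2.32 (Ugt2b5), -6.27 (Lipo2), 4.46 (Slc7a12), 2.87 (Ceacam2) and 2.83 (Cyp27b1), and no ARLmon response was called among them.

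In 20 of 120 groups tested, from 15 genes, the highest library stood further from the others than Dixon's limit allows. Chance gives about 1 in 20 only for independent, normally distributed values. These groups share the same 20 libraries and some rest on few reads, so no excess over chance is claimed. In wild type with vehicle, GC078604 was high for Kap (28612 CPM), Odc1 (263 CPM) and Tbx10 (1.39 CPM). GC078606 was high for Lipo2 (0.455 CPM), Fgb (43.9 CPM), Fgg (323 CPM), Gc (135 CPM) and Kcnip2 (20.9 CPM). In ARLmon with vehicle, GC078618 was high for Angptl7 (2.82 CPM) and Tbx10 (0.941 CPM), and GC078619 for Lipo2 (0.47 CPM). In ARLmon with testosterone, GC078615 was high for Ctxn3 (0.659 CPM), Slc7a12 (204 CPM), Prlr (323 CPM), Ceacam2 (76.9 CPM) and Hao2 (1361 CPM), GC078612 for Fgb (10.9 CPM) and Fgg (35.5 CPM), and GC078614 for Tmprss9 (0.449 CPM). In wild type with testosterone, GC078611 was high for Slc7a12 (5.94 CPM).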

How the results depend on the processing

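No paired analysis was possible because the columns carry library codes and no replicate numbers. The cause of the changes given here was not tested. Scaled by library size alone, the interaction had 340 negative and 715 positive calls, the wild type response 2687 and 897, and the vehicle difference 550 positive calls. Limma-voom with library weights called 1935 genes for the interaction (1196 negative, 739 positive) and 1736 for the vehicle difference (796 and 940), and DESeq2 called 567 negative for the latter. The deposited log2 values gave 369 negative and 617 positive interactions and 3710 wild type responses, 2677 of them negative. With each library left out, the interaction had 579 to 967 calls (432 to 645 negative, 144 to 322 positive), of which 570 (without GC078610) to 711 (without GC078604) were among the 741. The wild type response had 1753 to 2644 (614 to 1070 negative, 1139 to 1574 positive), with the fewest negative calls without GC078610. The vehicle difference had 413 (without GC078605) to 1211 (without GC078604) calls, 248 to 610 negative and 165 to 601 positive, and 184 positive without GC078603. Slc22a29 reversed in the deposited log2 values (-0.54). Of 88 named called genes 75 kept their call with every library left out. Genes under 1 CPM had the widest errors, with a median SE of 0.575.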
